A study of Danio rerio with 9 samples.

Results

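Double-positive cells of the zebrafish notochord sheath, sorted as positive for reporters of both col9a2 and entpd5a, were compared with col9a2+ sheath cells across all genes. The comparison used 6 of the 9 libraries of the series, 3 double-positive and 3 col9a2+, chosen by their titles, and the 3 entpd5a+ libraries entered the fit only to share the estimate of spread. Both populations came from notochord sheath of strain EK fish at 13 days after fertilization. The genotype label of all of them reads wild type, whereas the design text calls the fish transgenic, and the reporter constructs are not described in the sources used here. The labels do not say whether replicates were separate fish, pools or sorts, so p values measure only the spread between these samples.

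The notochord sheath is an epithelial layer around the vacuolated cells of the embryonic axial rod, and it secretes the collagen-rich matrix that holds the rod in shape. Sheath cells make cartilage-type collagens, of which collagen IX, with its chain encoded by col9a2, is one. In the zebrafish, segments of the sheath switch on entpd5a, an ectonucleotidase that releases phosphate and is needed for bone mineral, and these segments prefigure the mineralized rings of the vertebral bodies.

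Each library held counts for 32266 gene IDs. The double-positive libraries totalled 41687120 to 74690602 counts and the col9a2+ libraries 39955994 to 75825103, with the third library of each population the deepest. Genes with at least 1 count numbered 17850 to 20906 in double-positive libraries and 19755 to 21499 in col9a2+ libraries. Library 3 of both populations also stood apart in hsp70l, a heat shock gene: it had 909, 585 and 27160 CPM (counts scaled to library size, with factors that align libraries) in double-positive libraries and 277, 366 and 20210 CPM in col9a2+ libraries. Same-numbered libraries of the 2 populations deviated together from their population means, so values from a fit with replicate number as a block are given where they change a call. RNA of a cell type from fewer cells and less of that RNA per cell cannot be told apart in these bulk libraries.

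Of 19039 genes tested, 319 (1.68%) were called higher and 355 (1.86%) lower in double-positive cells, together 3.54%, at an adjusted p under 0.05 in edgeR's quasi-likelihood test. The median log2 difference over all tested genes was 0.01. Called differences were large: the median size was 2.84 on the log2 scale among the genes that rose and 4.10 among those that fell, and 145 and 248 of them exceeded 8-fold. The 3 double-positive and 3 col9a2+ libraries did not overlap for 4643 genes (24.4%), so most genes whose libraries stood apart were not called. Where a called gene is said below to stand apart, this rests on the same counts as its call and is no further support. With the replicate block in the 6 libraries 2228 of 17534 genes (12.7%) were called, 1219 higher (6.95%) and 1009 lower (5.75%), and these held 306 of the 319 rises and 317 of the 355 falls. Counts of list members called with the block are to be read against these larger shares. Leaving out 1 library at a time left between 242 (without col9a2+ library 1) and 787 calls (without entpd5a+ library 1). There were 270 calls without col9a2+ library 2, 373 without col9a2+ library 3, 347 without double-positive library 2 and 451 (209 of the rises and 188 of the falls kept) without double-positive library 1. In all 9 such fits 91 rises and 104 falls were kept. Gene lists are counted over the members that passed the filter on low counts; the FGF list, for example, kept 36 of 43.

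**Figure D1:**
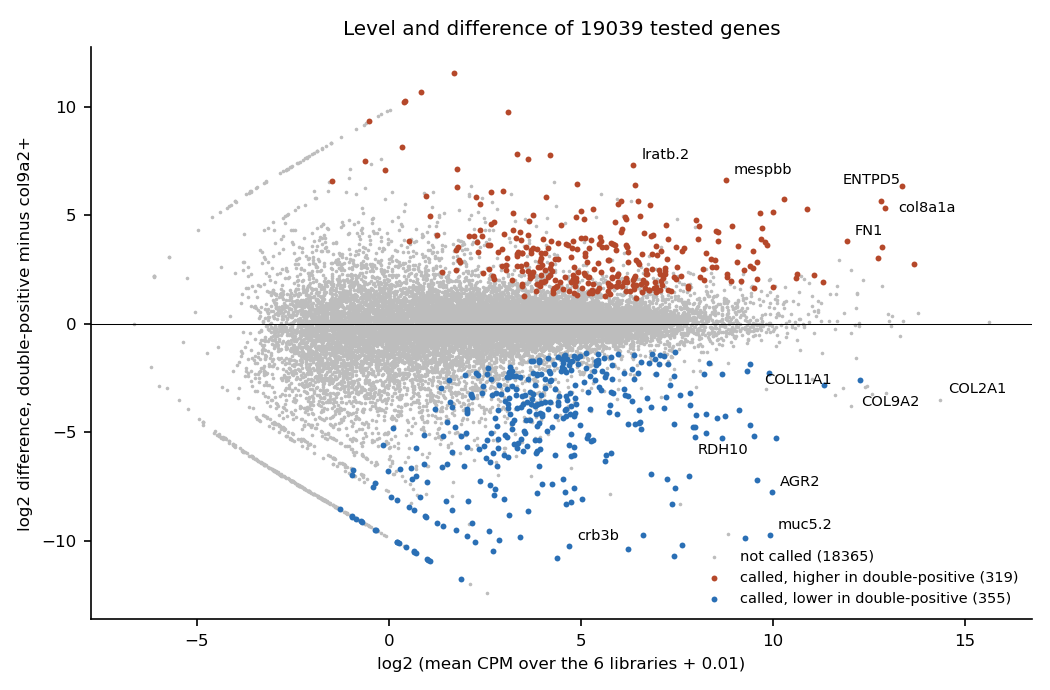
Log2 difference between double-positive and col9a2+ cells (vertical) against the log2 of the mean CPM over the 6 libraries plus 0.01 (horizontal) for 19039 genes. The 319 genes called higher and 355 called lower are coloured. The diagonal rows of points at low levels are genes with no count in 1 population, whose fitted differences depend on the prior count.

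The genes behind the 2 reporters were read first, as a check of the sort. ENTPD5, the name the files' IDs carry for the mineralization enzyme entpd5a, had 10370, 18680 and 13080 CPM in double-positive libraries and 253, 452 and 129 CPM in col9a2+ libraries. Its libraries did not overlap and it rose by 5.66 ± 0.69 on the log2 scale (SE, n = 3 libraries each, edgeR adjusted p = 0.00411), with a call in all 9 fits that left out a library. COL9A2, a chain of cartilage collagen IX, had 811, 1580 and 1426 CPM in double-positive libraries and 7738, 11560 and 9398 CPM in col9a2+ libraries. The populations stood apart at every library, yet its log2 difference of -2.91 ± 0.78 was not called (adjusted p = 0.0787). It was called with the replicate block in the 6 libraries (adjusted p = 0.000696) but not with that block in all 9 libraries (adjusted p = 0.0808). These blocks are not equivalent. Library 2 was deep in entpd5a+ cells (81471212 counts) but not in double-positive (46025035) or col9a2+ cells (43459950). Whether the number pairs entpd5a+ libraries with the others was not tested. COL9A2 remained well above 0 in all 3 double-positive libraries.

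**Figure D2:**
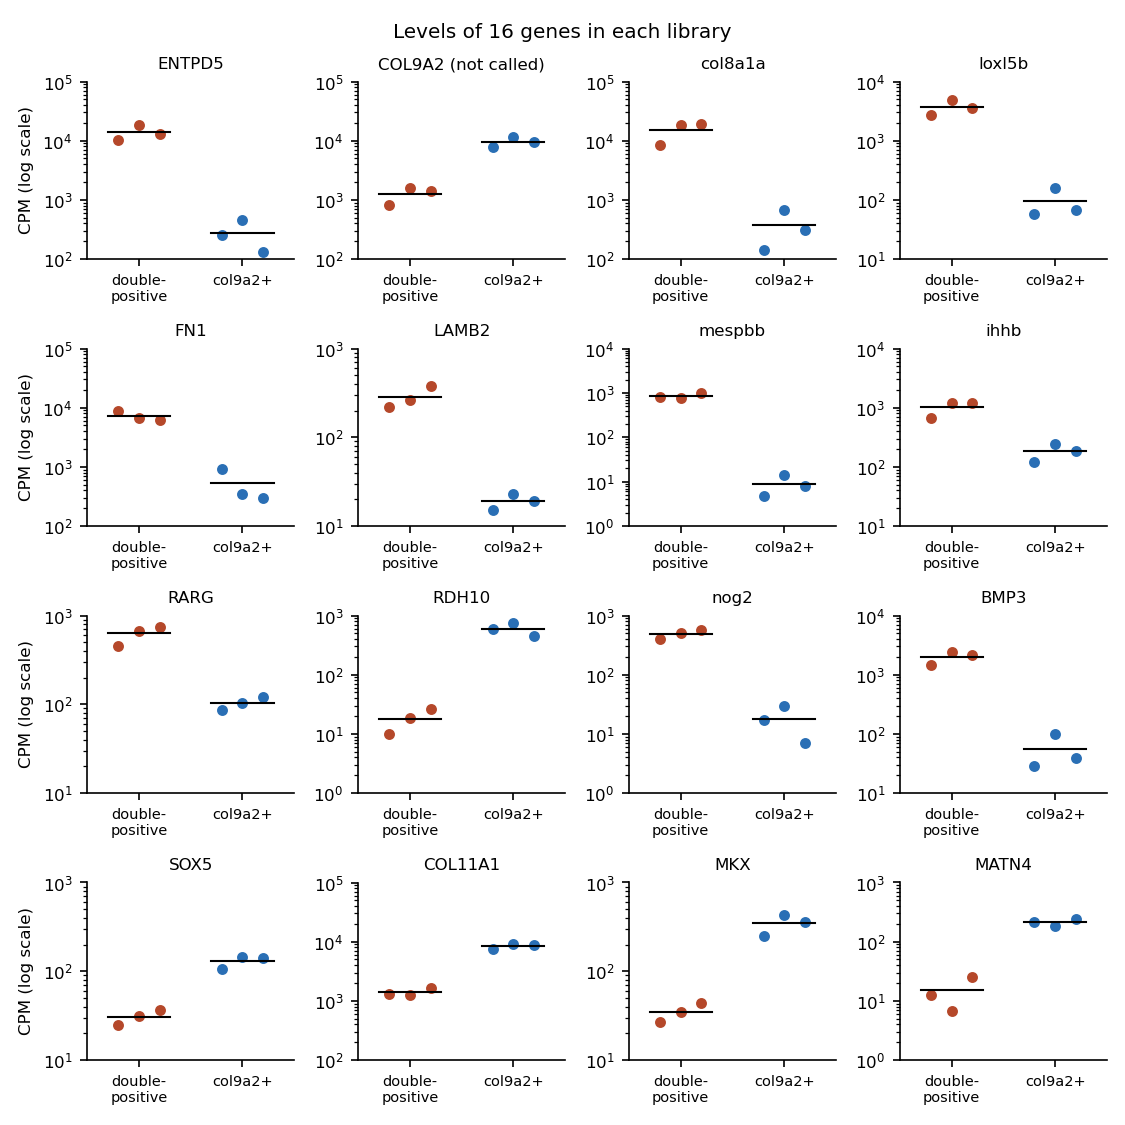
CPM on a log axis for 16 genes in each of the 3 double-positive (left) and 3 col9a2+ (right) libraries. Points are libraries and lines are means. The libraries of the 2 populations do not overlap for any of these genes, as for 24.4% of all tested genes, and COL9A2 is the 1 gene shown that was not called.

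Among cartilage matrix genes, falls outnumbered rises in double-positive cells. Of 30 tested cartilage genes 9 fell, 1 rose and 20 were not called, with a median log2 difference of -1.99 against 0.01 over all genes. COL11A1 and COL11A2, chains of the fibrillar collagen XI of cartilage, had 1294, 1248 and 1679 CPM and 673, 592 and 656 CPM in double-positive libraries, against 7481, 9227 and 8676 CPM and 3458, 5404 and 4703 CPM in col9a2+ libraries. They fell by 2.59 ± 0.53 (adjusted p = 0.0277) and 2.82 ± 0.56 (adjusted p = 0.0234) on the log2 scale.

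MATN4, a matrilin that links collagen fibrils to other matrix, had 12.8, 6.71 and 25.5 CPM in double-positive libraries and 215, 184 and 238 CPM in col9a2+ libraries. It fell by 3.82 ± 0.49 (adjusted p = 0.00525), with every double-positive library below every col9a2+ library. SOX5 and SOX6, partners of SOX9 in switching on cartilage genes, fell by 2.08 ± 0.33 (adjusted p = 0.0104) and 1.75 ± 0.34 (adjusted p = 0.0212). SOX5 had 24.9, 31.1 and 36.2 CPM in double-positive libraries and 106, 143 and 140 CPM in col9a2+ libraries.

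A pair of IDs carry the name COL2A1, the main cartilage collagen. COL2A1 (ENSDARG00000011407) had 28.3, 5.10 and 45.2 CPM in double-positive libraries and 544, 418 and 495 CPM in col9a2+ libraries, and fell by 4.21 ± 0.71 (adjusted p = 0.0126). COL2A1 (ENSDARG00000069093) had 1707, 3321 and 5144 CPM in double-positive libraries and 28730, 35310 and 50520 CPM in col9a2+ libraries. Its log2 difference of -3.49 ± 0.98 was not called (adjusted p = 0.0931) but was called with the block (adjusted p = 0.000714). The same held for col9a1b, a further collagen IX chain, at -3.21 ± 1.04 (adjusted p = 0.141, with the block 0.000714). Of the 9 tested cartilage collagens 4 were called lower, and they include another collagen IX chain that is not described further here.

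The single cartilage gene that rose was snorc, a small membrane proteoglycan of cartilage. It had 3391, 4965 and 2424 CPM in double-positive libraries and 908, 906 and 448 CPM in col9a2+ libraries (log2 difference 2.25 ± 0.48, adjusted p = 0.0326). MATN3 (ENSDARG00000069245), a matrilin of growth cartilage, had 6867, 13050 and 9911 CPM in double-positive libraries and 5582, 10550 and 6871 CPM in col9a2+ libraries. These ranges overlapped and the log2 difference of 0.37 ± 0.55 was not called (adjusted p = 0.846). With the block 18 cartilage genes were called lower and 2 higher. The calls of MATN4, SOX5 and COL2A1 (ENSDARG00000011407) held without each library in turn, and without double-positive library 3 MATN4 was at -4.45 and this COL2A1 at -4.87. Those of COL11A1 and COL11A2 were lost without any 1 of the 6 libraries compared (adjusted p up to 0.114 and 0.0995), that of SOX6 in 5 of 9 fits (up to 0.0984, without double-positive library 2) and that of snorc in 6 (up to 0.117, without col9a2+ library 3). Without double-positive library 1, 5 cartilage genes were called lower.

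In the fit without the block a minority of mineral and bone genes was called. Of the 22 tested genes that handle mineral and phosphate, 4 were called higher, among them the sort gene ENTPD5, whose rise is a check of the sort and not a finding, and 0 lower (1 at an unadjusted p under 0.05 in edgeR and 0 by DESeq2), with a median log2 difference of 1.10. With the block 8 were called higher and 1 lower. The gene enpp1, whose enzyme makes the mineral inhibitor pyrophosphate, had 924, 1381 and 1747 CPM in double-positive libraries and 138, 225 and 202 CPM in col9a2+ libraries (log2 difference 2.84 ± 0.47, adjusted p = 0.0115). SLC20A1 (ENSDARG00000020114), a sodium-phosphate transporter, had 862, 1575 and 2220 CPM in double-positive libraries and 43.8, 97.0 and 168 CPM in col9a2+ libraries (3.92 ± 0.69, adjusted p = 0.0146). Both stood apart at every library.

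The sodium-calcium exchanger gene slc8a4b also rose, at 9.17, 2.99 and 6.49 CPM in double-positive libraries and 0.535, 0.596 and 1.26 CPM in col9a2+ libraries (log2 difference 2.95 ± 0.59, adjusted p = 0.0252), and lost its call with the block (adjusted p = 0.05). The second ID named SLC20A1 (ENSDARG00000010641) was not called, at 0.53 ± 0.40 (adjusted p = 0.615). The call of enpp1 was lost without col9a2+ library 1 (adjusted p = 0.069), that of SLC20A1 (ENSDARG00000020114) without col9a2+ libraries 1 and 2 (up to 0.0728) and that of slc8a4b in 3 of 9 fits (up to 0.118, without col9a2+ library 1).

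Among 28 tested bone genes 2 rose and none fell (3 at an unadjusted p under 0.05 in edgeR and 3 by DESeq2), with a median log2 difference of 1.61. SOST, the Wnt antagonist sclerostin of mature bone cells, had 120, 299 and 153 CPM in double-positive libraries and 20.9, 5.71 and 5.16 CPM in col9a2+ libraries (log2 difference 4.17 ± 0.68, adjusted p = 0.0114). RUNX2, the factor that sets osteoblast identity, had 4.77, 8.74 and 13.7 CPM in double-positive libraries and 1.41, 1.81 and 2.09 CPM in col9a2+ libraries (2.35 ± 0.55, adjusted p = 0.0465). The call of SOST was lost without col9a2+ library 2 (adjusted p = 0.0536), and without col9a2+ library 1 its difference was 5.13. RUNX2 lost its call in 8 of 9 fits (adjusted p up to 0.181, without col9a2+ library 1).

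COL10A1 (ENSDARG00000054753), the collagen X of hypertrophic cartilage and of fish bone, had 12880, 3229 and 5353 CPM in double-positive libraries and 2417, 565 and 872 CPM in col9a2+ libraries. Within each replicate number it was higher in double-positive cells, and the log2 difference of 2.48 ± 0.78 was called with the block (adjusted p = 0.000585) but not in the main fit (0.132). The bone collagen gene col1a1a overlapped fully, at 7938, 1469 and 4522 CPM in double-positive libraries and 5624, 3678 and 5818 CPM in col9a2+ libraries (-0.12 ± 0.66, adjusted p = 0.974). SPARC, a collagen-binding bone glycoprotein, also overlapped and was not called at -0.57 ± 0.52 (adjusted p = 0.703, with the block 0.0241). With the block 11 bone genes were called higher and 4 lower.

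Without the block, notochord genes were either called higher or not called. Of 22 tested notochord genes 5 rose and none fell (2 at an unadjusted p under 0.05 in edgeR and 1 by DESeq2), with a median log2 difference of 0.803. The gene col8a1a encodes a short-chain collagen of the notochord sheath. It had 8508, 18070 and 19120 CPM in double-positive libraries and 142, 676 and 310 CPM in col9a2+ libraries (log2 difference 5.34 ± 0.79, adjusted p = 0.00762). The gene loxl5b, for a collagen-crosslinking oxidase, had 2750, 4818 and 3621 CPM in double-positive libraries and 57.3, 160 and 68.6 CPM in col9a2+ libraries (5.29 ± 0.68, adjusted p = 0.00525). Both were named among the largest rises, a set limited to genes whose libraries did not overlap, which held for 24.4% of all tested genes.

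The simple-epithelium keratins krt8 and krt18a.1 rose as well, by 1.93 ± 0.41 (adjusted p = 0.0307) and 3.01 ± 0.52 (adjusted p = 0.0128). The level of krt18a.1 was 11060, 14700 and 10590 CPM in double-positive libraries and 1537, 1514 and 1446 CPM in col9a2+ libraries, with no overlap. Markers that define the notochord were present in both populations. The brachyury gene tbxta, the master factor of notochord fate, had 1389, 2161 and 4465 CPM in double-positive libraries and 926, 1482 and 2147 CPM in col9a2+ libraries, which overlapped and were not called apart (0.82 ± 0.74, adjusted p = 0.702, with the block 0.02). The notochord matrix gene cmn (calymmin) was at 1.36 ± 0.50 (adjusted p = 0.199, with the block 0.00355), and CCN2, a matricellular growth factor of the notochord, at 1.72 ± 0.56 (adjusted p = 0.143, with the block 0.000822). With the block 12 notochord genes were called higher and 2 lower. The calls of col8a1a and loxl5b held in all 9 fits, with differences of 6.08 and 5.89 without col9a2+ library 2. That of krt18a.1 was lost without each of the 3 col9a2+ libraries (adjusted p up to 0.0746) and that of krt8 in 7 of 9 fits (up to 0.124, without col9a2+ library 1).

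Basement membrane and interstitial matrix genes moved in both directions. Of 52 tested members 6 rose and 5 fell, with a median log2 difference of -0.366. With the block 9 were called higher and 11 lower, and without double-positive library 1 there were 6 and 3. The rises included LAMB2, LAMA5, HSPG2 and a nidogen, which build the laminin sheet and its cross-bridges. LAMB2, a laminin chain, had 221, 263 and 378 CPM in double-positive libraries and 15.0, 23.0 and 19.3 CPM in col9a2+ libraries (log2 difference 3.91 ± 0.36, adjusted p = 0.00149). NID1 (ENSDARG00000103129), a nidogen that ties laminin to collagen IV, had 165, 363 and 450 CPM in double-positive libraries and 22.9, 30.1 and 32.7 CPM in col9a2+ libraries (3.51 ± 0.43, adjusted p = 0.00411). In neither gene did the populations overlap.

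FN1 (ENSDARG00000006526), a fibronectin through which cells grip the matrix, had 8670, 6780 and 6304 CPM in double-positive libraries and 931, 342 and 300.2 CPM in col9a2+ libraries (log2 difference 3.79 ± 0.60, adjusted p = 0.0102). Other nidogen IDs went otherwise. NID2 fell by 3.20 ± 0.49 (adjusted p = 0.00923), at 2.75, 4.37 and 8.38 CPM in double-positive libraries and 63.4, 41.9 and 37.3 CPM in col9a2+ libraries. NID1 (ENSDARG00000068710) was not called, at -1.31 ± 0.41 (adjusted p = 0.13, with the block 0.00333).

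The other falls of this list were in interstitial glycoproteins: vcanb, a versican proteoglycan (-4.52 ± 0.92, adjusted p = 0.0269), FBLN1, an elastic fibre protein (-3.18 ± 0.54, adjusted p = 0.0127), THBS3 (ENSDARG00000012060), a thrombospondin (-4.34 ± 0.82, adjusted p = 0.0196), and TGFBI, a collagen-binding adhesion protein (-2.30 ± 0.53, adjusted p = 0.0465). Calls of LAMB2, NID1 (ENSDARG00000103129), FN1 (ENSDARG00000006526) and NID2 held in all 9 fits, and the fibronectin difference was 4.49 without col9a2+ library 1. FBLN1 was lost without col9a2+ library 2 and double-positive library 2 (adjusted p up to 0.0571). THBS3 was lost in 3 fits (up to 0.0618, without col9a2+ library 1) and vcanb in 4 (up to 0.0982, without double-positive library 2), and their differences were -6.11 and -6.22 without double-positive library 3. HSPG2 was lost in 4 fits (up to 0.0993, without col9a2+ library 1), LAMA5 in 5 (up to 0.139, without col9a2+ library 1) and TGFBI in 8 (up to 0.159, without double-positive library 2), and TGFBI was at -3.12 without double-positive library 3.

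Calls among genes that finish collagen also went in both directions, while most differences were negative. Of 60 tested genes of collagen processing and secretion 3 rose and 3 fell, with a median log2 difference of -0.496. The difference was negative for 47 and positive for 13, and with the block 5 were called higher and 21 lower. Besides loxl5b, the crosslinking oxidase loxl2a rose, at 385, 615 and 798 CPM in double-positive libraries and 74.3, 65.6 and 90.0 CPM in col9a2+ libraries (log2 difference 2.97 ± 0.41, adjusted p = 0.00643). P3H2, a prolyl 3-hydroxylase that modifies basement membrane collagen, rose by 2.86 ± 0.33 (adjusted p = 0.00338). LOXL3 (ENSDARG00000039563), another oxidase of that family, fell by 1.30 ± 0.30 (adjusted p = 0.0437).

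The gene pcolceb, for an enhancer of procollagen trimming, had 12.5, 2.65 and 2.23 CPM in double-positive libraries and 223, 137 and 69.3 CPM in col9a2+ libraries (log2 difference -4.63 ± 0.77, adjusted p = 0.0118). CREB3L1, a factor that raises collagen secretion, fell by 2.31 ± 0.33 (adjusted p = 0.00697), with every double-positive library below every col9a2+ library. The collagen chaperone SERPINH1 (ENSDARG00000019949) was not called, at -0.75 ± 0.87 (adjusted p = 0.785, with the block 0.0175). The calls of loxl2a, P3H2, pcolceb and CREB3L1 held in all 9 fits, and pcolceb was at -5.87 without double-positive library 1. The LOXL3 call was lost in 7 (adjusted p up to 0.157, without double-positive library 1).

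Of 47 tested proteases and inhibitors 4 rose and 1 fell, so 10.6% were called, against 3.54% of all genes. Their median log2 difference was 0.0238. With the block 7 were called higher and 3 lower, where it called 6.95% of all genes higher and 5.75% lower. Without double-positive library 1 there were 2 and 1. HTRA1 (ENSDARG00000032831), a secreted serine protease of cartilage and disc matrix, had 1361, 1539 and 1855 CPM in double-positive libraries and 41.5, 59.6 and 37.8 CPM in col9a2+ libraries (log2 difference 5.10 ± 0.45, adjusted p = 0.0014). Its populations stood far apart and its call held in all 9 fits, whereas each of the other rises of this list lost its call in 4 to 8 of them. The metalloprotease gene mmp23bb went the other way, at 38.4, 56.9 and 42.5 CPM in double-positive libraries and 363, 540 and 347 CPM in col9a2+ libraries (-3.18 ± 0.55, adjusted p = 0.013), and lost its call without double-positive library 1 (adjusted p = 0.0544).

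Among 27 integrins and cadherins none rose (5 at an unadjusted p under 0.05 in edgeR and 3 by DESeq2) and 2 fell, with a median log2 difference of 0.453 and, with the block, 6 called higher and 2 lower. The falls were cdh1, the epithelial cadherin (-3.53 ± 0.53, adjusted p = 0.00844), and ITGA8, an integrin chain that binds fibronectin (-3.76 ± 0.88, adjusted p = 0.0483, lost in 7 of 9 fits with adjusted p up to 0.151 without double-positive library 2, and -5.43 without double-positive library 3). The cdh1 fall is counted in the epidermal and mucous list as well. None of the 42 tested genes of caveolae, proton pump and vesicle fusion was called by edgeR (2 at an unadjusted p under 0.05 and 2 by DESeq2, all higher), with a median log2 difference of 0.133, nor any of 40 immediate early and heat shock genes (2 and 2, all higher). With the block 4 of the caveolae, proton pump and vesicle fusion genes were called higher and none lower, and 13 of the immediate early and heat shock genes higher and 2 lower. Over all genes the block called 6.95% higher and 5.75% lower.

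**Figure D3:**
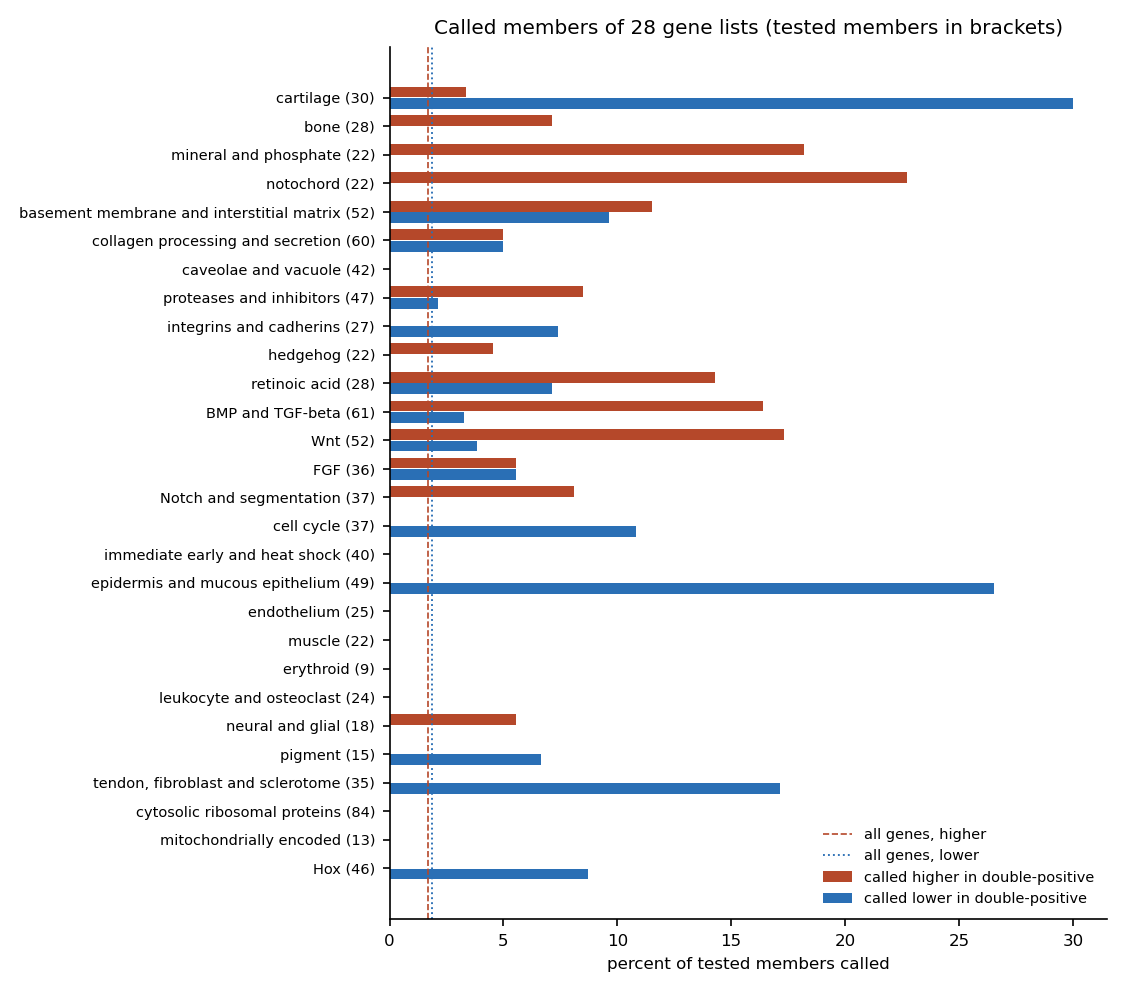
Percent of the tested members of each of 28 gene lists called higher (upper bar) or lower (lower bar) in double-positive cells, with the number of tested members in brackets. The dashed and dotted lines mark the 1.68% and 1.86% of all genes called higher and lower. Notochord, mineral, Wnt and BMP lists hold more rises than falls among their calls, and cartilage, epidermis and tendon lists more falls.

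The largest rise among segment-forming genes was that of mespbb. This gene encodes a basic helix-loop-helix factor that marks the front part of forming somites, and it had 825, 771 and 1002 CPM in double-positive libraries and 4.75, 13.8 and 7.93 CPM in col9a2+ libraries. Its log2 difference was 6.62 ± 1.06 (adjusted p = 0.0104), and the rule that named the largest rises required libraries that did not overlap. Of 37 tested genes of Notch signalling and segmentation 3 rose and none fell (1 at an unadjusted p under 0.05 in edgeR and 1 by DESeq2), with a median log2 difference of 0.372, and with the block 5 were called higher. The segment boundary repressor ripply1 had 8.23, 17.6 and 34.1 CPM in double-positive libraries and 3.04, 1.04 and 2.14 CPM in col9a2+ libraries (3.26 ± 0.74, adjusted p = 0.0437).

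NOTCH1 (ENSDARG00000103554), a Notch receptor, had 29.6, 25.9 and 34.8 CPM in double-positive libraries and 1.31, 2.48 and 5.50 CPM in col9a2+ libraries (log2 difference 3.28 ± 0.68, adjusted p = 0.0296). The target gene NRARP (ENSDARG00000091419), a feedback inhibitor of Notch, was at 1.82 ± 1.03 (adjusted p = 0.444, with the block 0.00645). The mespbb call was lost without col9a2+ library 1 alone (adjusted p = 0.0562). The ripply1 call was lost in 6 fits (up to 0.164, without col9a2+ library 2), and its difference was 2.64 without double-positive library 3. The NOTCH1 call was lost in 5 fits (up to 0.128, without col9a2+ library 2), and its difference was 3.99 without col9a2+ library 3.

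Retinoic acid genes were called in both directions. Retinoic acid is made from vitamin A by uptake and successive oxidation, is removed by CYP26 enzymes and acts through nuclear receptors. Of 28 tested genes 4 rose and 2 fell, with a median log2 difference of -0.266, and with the block 5 were called higher and 4 lower. Both falls were on the supply side. STRA6, the membrane receptor that takes up retinol, had 0.157, 1.41 and 2.06 CPM in double-positive libraries and 106, 123 and 65.2 CPM in col9a2+ libraries (-6.33 ± 0.88, adjusted p = 0.0064).

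RDH10 (ENSDARG00000058730), the enzyme of the first oxidation, had 10.1, 18.3 and 26.0 CPM in double-positive libraries and 598, 744 and 442 CPM in col9a2+ libraries (log2 difference -5.04 ± 0.53, adjusted p = 0.00225). DHRS3 (ENSDARG00000044982), which reduces retinal back to retinol, had 1045, 1865 and 1022 CPM in double-positive libraries and 106, 204 and 77.7 CPM in col9a2+ libraries (3.34 ± 0.72, adjusted p = 0.0348). CYP26B1, which breaks retinoic acid down, had 618, 753 and 754 CPM in double-positive libraries and 44.4, 52.7 and 55.9 CPM in col9a2+ libraries (3.80 ± 0.69, adjusted p = 0.0172). All 4 of these called genes stood apart at every library, which also held for 24.4% of all tested genes.

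The receptors RARG (ENSDARG00000034117) and RXRA (ENSDARG00000057737) rose by 2.59 ± 0.38 (adjusted p = 0.00697) and 1.81 ± 0.41 (adjusted p = 0.0446). The retinol-storing enzymes lratb.1 and lratb.2, which turn retinol into retinyl ester and are named for the size of their change rather than from the list, rose too. The level of lratb.1 was 2324, 3381 and 1680 CPM in double-positive libraries and 19.3, 97.7 and 21.0 CPM in col9a2+ libraries (5.74 ± 0.83, adjusted p = 0.00697), and lratb.2 rose by 7.30 ± 1.03 (adjusted p = 0.00697). Reads shared between such near-identical neighbours were not traced.

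ALDH1A2, which makes retinoic acid from retinal, had 125, 130 and 72.6 CPM in double-positive libraries and 140, 149 and 105 CPM in col9a2+ libraries. These overlapped and were not called apart (log2 difference -0.27 ± 0.32, adjusted p = 0.793). The blood retinol carrier RBP4 was at -1.47 ± 0.36 (adjusted p = 0.0565, with the block 0.00353). Calls of STRA6, RDH10, RARG, lratb.1 and lratb.2 held in all 9 fits. Without double-positive library 3 STRA6 was at -6.98, and without col9a2+ library 2 lratb.1 was at 6.94 and lratb.2 at 7.97. CYP26B1 was lost without each col9a2+ library (adjusted p up to 0.092), DHRS3 in 5 fits (up to 0.157) and RXRA in 7 (up to 0.17), both least called without col9a2+ library 1.

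Among BMP and TGF-beta genes rises outnumbered falls, and inhibitors were among the rises. Of 61 tested members 10 rose and 2 fell, with a median log2 difference of 0.949, and with the block 28 were called higher and 3 lower. Among ligands, BMP3, an atypical BMP that opposes bone-forming BMPs, had 1434, 2384 and 2136 CPM in double-positive libraries and 28.2, 98.7 and 38.8 CPM in col9a2+ libraries (log2 difference 5.17 ± 0.62, adjusted p = 0.0041). The ligand gdf6a, a growth and differentiation factor of skeletal joints, fell by 5.04 ± 0.96 (adjusted p = 0.0207). The ligand tgfb1a rose by 2.02 ± 0.43 (adjusted p = 0.0342).

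Of 13 tested antagonists 4 rose and 1 fell. The noggin gene nog2, whose product binds and blocks BMPs, had 394, 511 and 567 CPM in double-positive libraries and 16.8, 29.2 and 6.98 CPM in col9a2+ libraries (log2 difference 4.80 ± 0.58, adjusted p = 0.00411). FSTL1 (ENSDARG00000015559), a follistatin-like glycoprotein, rose by 6.37 ± 0.66 (adjusted p = 0.00225).

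Another pair of IDs, both named FST (follistatin, which binds activins and BMPs), went opposite ways. FST (ENSDARG00000052846) rose by 4.05 ± 0.67 (adjusted p = 0.0114), a call lost with the block (adjusted p = 0.0739). FST (ENSDARG00000057992) fell by 4.84 ± 1.09 (adjusted p = 0.0422), a call lost with the block (adjusted p = 0.0879) and in 7 of 9 fits (up to 0.11, without col9a2+ library 1). Among 28 receptors and effectors TGFBR3, SMAD3 (ENSDARG00000010207) and both SMAD6 IDs, an inhibitory SMAD, rose by 1.82 to 2.76 and no fall was called.

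The immediate BMP target genes ID1, ID2 and ID3 were at 1.17, 2.01 and 1.82. They were called with the block (adjusted p = 0.00462, 0.00487 and 0.000915) but not in the main fit (0.498, 0.103 and 0.191). ID3 had 468, 595 and 1144 CPM in double-positive libraries and 132, 168 and 324 CPM in col9a2+ libraries, with library 3 highest in both. Calls of BMP3, nog2, FSTL1, TGFBR3 and FST (ENSDARG00000052846) held in all 9 fits that left out a library, FST (ENSDARG00000052846) was at 4.69 without col9a2+ library 1, and BMP3 was at 5.89 without col9a2+ library 2. The gdf6a call was lost in 4 (up to 0.0712, without col9a2+ library 1), and its difference was -6.94 without double-positive library 3. The calls of tgfb1a, SMAD3 and SMAD6 (ENSDARG00000031763) were lost in 7 fits each (up to 0.154, 0.158 and 0.163) and that of SMAD6 (ENSDARG00000053209) in 6 (up to 0.123), least called without col9a2+ library 1 or 2.

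Among Wnt genes, too, more rises than falls were called. Of 52 tested members 9 rose and 2 fell, with a median log2 difference of 0.289. With the block 14 were called higher and 5 lower, and without double-positive library 1 there were 9 and 5. The frizzled receptors FZD5 and FZD7 (ENSDARG00000027589) rose by 3.68 ± 0.53 (adjusted p = 0.00697) and 3.74 ± 0.55 (adjusted p = 0.00762). FZD7 had 1068, 2183 and 1688 CPM in double-positive libraries and 66.9, 201 and 100.1 CPM in col9a2+ libraries. FZD8 (ENSDARG00000045444), ROR2 and LRP5, further receptors, rose by 2.93 ± 0.48 (adjusted p = 0.0114), 2.28 ± 0.45 (adjusted p = 0.0239) and 1.34 ± 0.25 (adjusted p = 0.0181).

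The nuclear partners of beta-catenin divided. TCF7L2 had 392, 463 and 289 CPM in double-positive libraries and 30.9, 48.7 and 23.4 CPM in col9a2+ libraries (log2 difference 3.47 ± 0.40, adjusted p = 0.00343), and tcf7l1b rose by 1.72 ± 0.37 (adjusted p = 0.0321). LEF1 had 4.77, 2.21 and 2.11 CPM in double-positive libraries and 13.5, 17.0 and 13.0 CPM in col9a2+ libraries (-2.26 ± 0.39, adjusted p = 0.013). No library of the 2 populations overlapped in TCF7L2 or LEF1.

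Of 18 Wnt ligands tested 1 was called, wnt4b, which fell, at 0.716, 1.80 and 2.85 CPM in double-positive libraries and 43.3, 49.5 and 132 CPM in col9a2+ libraries (log2 difference -5.38 ± 0.71, adjusted p = 0.00544). The secreted Wnt blockers dkk1a and SFRP5 rose by 5.18 ± 0.40 (adjusted p = 0.0014) and 4.48 ± 0.71 (adjusted p = 0.0103). Calls of FZD5, FZD7, TCF7L2, wnt4b and dkk1a held in all 9 fits. Without col9a2+ library 3 FZD5 was at 4.27 and wnt4b at -4.69. The LEF1 call was lost without col9a2+ library 2 and double-positive library 2 (adjusted p up to 0.0574). FZD8 and SFRP5 lost theirs without col9a2+ library 1 alone (0.0562 and 0.0516), and SFRP5 was at 5.53 without col9a2+ library 2. LRP5 and ROR2 lost theirs in 5 fits each (up to 0.0871 and 0.118) and tcf7l1b in 6 (up to 0.154), each with its highest p without col9a2+ library 1 or 2.

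**Figure D4:**
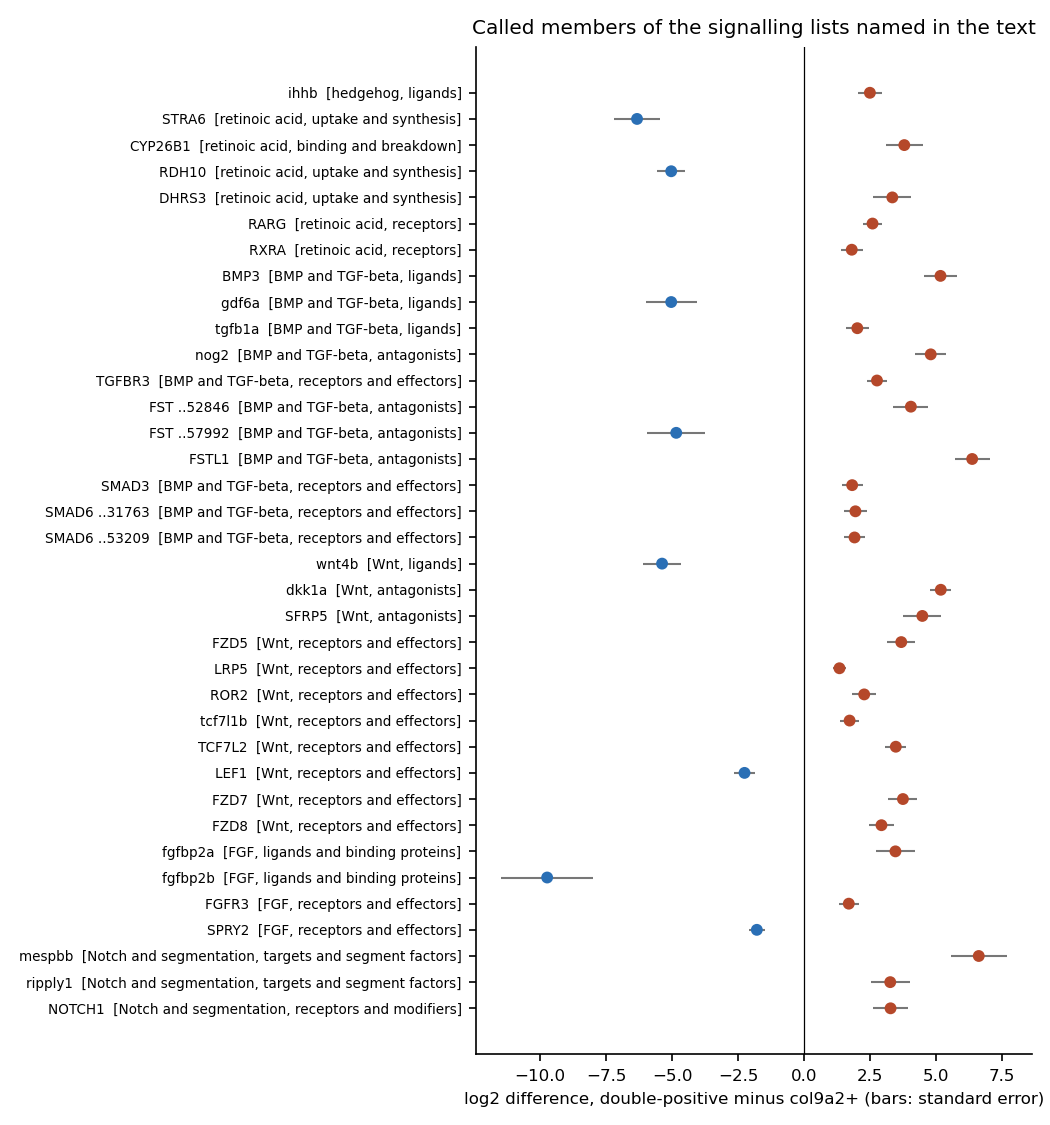
Log2 difference between double-positive and col9a2+ cells, with its standard error, for the called members, as far as named in the text, of the hedgehog, retinoic acid, BMP and TGF-beta, Wnt, FGF, and Notch and segmentation lists. Points right of 0 are higher in double-positive cells, among them nog2, dkk1a and mespbb, and points left of 0 are lower, among them STRA6, RDH10 and wnt4b. Digits after FST and SMAD6 are the ends of their gene IDs.

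The hedgehog list held 1 call (4.55%) and the FGF list 4 (11.1%), against 3.54% of all genes. Of 22 tested hedgehog genes 1 rose and none fell (1 at an unadjusted p under 0.05 in edgeR and 1 by DESeq2), with a median log2 difference of 0.503, and with the block 8 were called higher. The called gene was ihhb, for an Indian hedgehog ligand, at 678, 1182 and 1215 CPM in double-positive libraries and 121, 241 and 185 CPM in col9a2+ libraries (2.49 ± 0.45, adjusted p = 0.016). SHH (ENSDARG00000068567), the sonic hedgehog ligand of the notochord, had 1101, 1546 and 1240 CPM in double-positive libraries and 653, 990 and 731 CPM in col9a2+ libraries (0.71 ± 0.43, adjusted p = 0.484, with the block 0.00932). The ihhb call was lost in 3 of 9 fits (up to 0.0876, without col9a2+ library 1).

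Of 36 tested FGF genes 2 rose and 2 fell, with a median log2 difference of -0.187. With the block 4 were called higher and 4 lower, and without double-positive library 1 none higher and 2 lower. FGFR3, the receptor that restrains cartilage growth, had 1244, 1732 and 1774 CPM in double-positive libraries and 452, 581 and 435.5 CPM in col9a2+ libraries (1.69 ± 0.39, adjusted p = 0.0437). SPRY2, a feedback inhibitor of FGF receptors, fell by 1.79 ± 0.31 (adjusted p = 0.013). The FGF-binding proteins fgfbp2a and fgfbp2b went opposite ways, at 3.46 ± 0.75 (adjusted p = 0.0354) and -9.74 ± 1.73 (adjusted p = 0.0152). Without double-positive library 1 fgfbp2a was at 2.27, and without col9a2+ library 1 fgfbp2b was at -8.71. Each of these 4 calls was lost in some of the 9 fits, FGFR3 in 8 (up to 0.186, without col9a2+ library 1), fgfbp2a in 4 (up to 0.146, without col9a2+ library 2), SPRY2 in 3 (up to 0.0661, without double-positive library 2) and fgfbp2b without double-positive libraries 1 and 2 (up to 0.0574).

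Without the block, cell cycle genes were lower as far as they were called. Of 37 tested members none rose (1 at an unadjusted p under 0.05 in edgeR and 0 by DESeq2) and 4 fell, so 10.8% were called, against 3.54% of all genes. The median log2 difference was -1.37, and 35 had a negative difference, against 9415 of the 19039 genes tested. Cytosolic ribosomal protein genes were negative for 70 of 84 as well, with none called by edgeR. With the block 12 cell cycle genes were called lower and 1 higher. MCM4, a subunit of the replicative helicase, had 69.8, 54.5 and 64.2 CPM in double-positive libraries and 166, 143 and 191 CPM in col9a2+ libraries (-1.41 ± 0.27, adjusted p = 0.0196). The other falls were MCM5 of the same helicase (-1.45 ± 0.33, adjusted p = 0.0408), the nucleotide-making enzyme RRM1 (-1.40 ± 0.33, adjusted p = 0.0467) and the proliferation marker mki67 (-1.77 ± 0.41, adjusted p = 0.0456). No cell cycle gene was called without double-positive library 1. Each of these calls was lost in 6 to 8 of the 9 fits, with adjusted p values up to 0.0995, 0.154, 0.187 and 0.144.

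Epidermal and mucous genes made up the largest group of falls among the marker lists of other cell types. Of 49 tested members 13 fell and none rose (4 at an unadjusted p under 0.05 in edgeR and 3 by DESeq2), with a median log2 difference of -2.23, and with the block 21 were called lower and 5 higher. AGR2, a disulfide isomerase of mucus-secreting cells, had 4.36, 8.17 and 15.1 CPM in double-positive libraries and 2867, 2422 and 744 CPM in col9a2+ libraries (-7.77 ± 1.23, adjusted p = 0.0102). The mucin genes muc5.1 and muc5.2 fell by 10.68 ± 2.15 (adjusted p = 0.0254) and 9.75 ± 1.90 (adjusted p = 0.0219), and reads they share were not traced.

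The epithelial adhesion gene epcam fell by 4.61 ± 0.74 (adjusted p = 0.0103). GRHL2, a grainyhead factor of epithelial identity, had no count in any double-positive library and 586 counts in col9a2+ libraries (edgeR adjusted p = 0.0102). Set against a floor of 3 counts over the population this is 169-fold lower, and the exact 95% interval of the ratio starts at 137. The summed level of the 38 list members other than keratins was 2580, 4659 and 3449 CPM in double-positive libraries and 9097, 8775 and 4568 CPM in col9a2+ libraries, which overlapped. Keratins summed to 12409, 15939 and 14636 CPM in double-positive libraries and 8930, 10741 and 13356 CPM in col9a2+ libraries.

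Among the keratins krt91 fell by 1.86 ± 0.36 (adjusted p = 0.0227), while krt5 overlapped at -0.40 ± 0.60 (adjusted p = 0.846). The keratin krt4 was not called in the main fit but was called with the block (1.42 ± 0.50, adjusted p = 0.178, with the block 0.00471). Calls of AGR2, epcam and GRHL2 held in all 9 fits, and epcam was at -5.61 without double-positive library 3. Those of muc5.1, muc5.2 and krt91 were lost in 5 each (adjusted p up to 0.0954, 0.0842 and 0.0887), and muc5.1 was at -9.91 without col9a2+ library 1. Without double-positive library 1, 8 members were called lower. The part of epidermal cells in these differences was not tested.

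Without the block, calls among connective tissue genes were falls, while most of these genes were not called. Of 35 tested tendon, fibroblast and sclerotome genes 6 fell and none rose (2 at an unadjusted p under 0.05 in edgeR and 1 by DESeq2), with a median log2 difference of -1.10, and with the block 12 were called lower and 1 higher. MKX, the mohawk factor of tendon, had 26.6, 34.9 and 43.6 CPM in double-positive libraries and 246, 431 and 359 CPM in col9a2+ libraries (-3.30 ± 0.39, adjusted p = 0.00389). PRRX1 (ENSDARG00000042027), a factor of loose mesenchyme, fell by 4.09 ± 0.41 (adjusted p = 0.00208). COL12A1 (ENSDARG00000019601) and FMOD (ENSDARG00000044895), a fibril-surface collagen and a fibril-binding proteoglycan, fell by 3.15 ± 0.48 (adjusted p = 0.00917) and 3.33 ± 0.53 (adjusted p = 0.0102).

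All 4 of these calls held in all 9 fits. The summed level of the whole list was nonetheless not lower, at 4177, 3748 and 8319 CPM in double-positive libraries and 2504, 2001 and 3839 CPM in col9a2+ libraries. This sum is carried by egr1, an early response gene on the list, at 3583, 3551 and 7779 CPM in double-positive libraries and 1213, 982 and 2331 CPM in col9a2+ libraries (1.72 ± 0.56, adjusted p = 0.144, with the block 0.000971).

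Endothelial transcripts were high in 1 double-positive library. The summed level of 25 endothelial markers was 597, 60.7 and 82.2 CPM in double-positive libraries and 79.0, 56.0 and 81.3 CPM in col9a2+ libraries, and 20 of the 25 were highest in double-positive library 1. Of these sums ESAM alone gave 58.9, 48.65 and 43.6 CPM in double-positive libraries and 25.9, 37.5 and 29.75 CPM in col9a2+ libraries. The other markers together therefore differed more between double-positive library 1 and the rest than the sums show. The vascular receptor kdrl had 62.0, 0.338 and 1.39 CPM in double-positive libraries and 1.59, 3.40 and 7.53 CPM in col9a2+ libraries. FLI1, an endothelial factor, had 65.1, 1.35 and 4.48 CPM in double-positive libraries and 16.5, 5.04 and 11.9 CPM in col9a2+ libraries.

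The median log2 difference of the 25 markers was 2.81 with double-positive library 1 and -1.23 without it, and none was called in either fit (with that library 5 passed an unadjusted p under 0.05 in edgeR and 2 were called by DESeq2). Without that library 209 of the 319 genes called higher kept their call, against 165 without double-positive library 2 and 211 without double-positive library 3. In all 319, double-positive libraries 2 and 3 were both above every col9a2+ library. The calls were made on these same libraries, so this is not a separate check. For 24.4% of all tested genes the double-positive and col9a2+ libraries did not overlap, in either direction. With the block 2 endothelial markers were called higher. Muscle, erythroid and leukocyte lists held no call by edgeR among 22, 9 and 24 tested markers (2, 0 and 6 at an unadjusted p under 0.05, and 2, 0 and 1 by DESeq2). With the block 1 muscle and 1 leukocyte marker were called lower. The pigment list held 1 fall, ltk, with 3 counts in double-positive libraries and 654 in col9a2+ libraries (ratio 189 in col9a2+ over double-positive, exact 95% interval 64.3 to 918, edgeR adjusted p = 0.0157). Its call was lost without col9a2+ library 3 (adjusted p = 0.0669) and without double-positive library 2, and its fitted difference was -6.17 without col9a2+ library 3. The neural and glial list held 1 rise among 18 tested markers, that of the myelin gene mbpb, at 189, 273 and 190 CPM in double-positive libraries and 41.6, 81.2 and 45.1 CPM in col9a2+ libraries (log2 difference 1.96 ± 0.39, adjusted p = 0.0254, lost in 4 of 9 fits with adjusted p up to 0.131 without col9a2+ library 1). None of the 84 cytosolic ribosomal protein genes or 13 mitochondrially encoded genes was called by edgeR (0 at an unadjusted p under 0.05 and 0 by DESeq2), with median log2 differences of -0.236 and -0.000536. With the block 8 of the ribosomal protein genes were called lower, where 5.75% of all genes were.

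**Figure D5:**
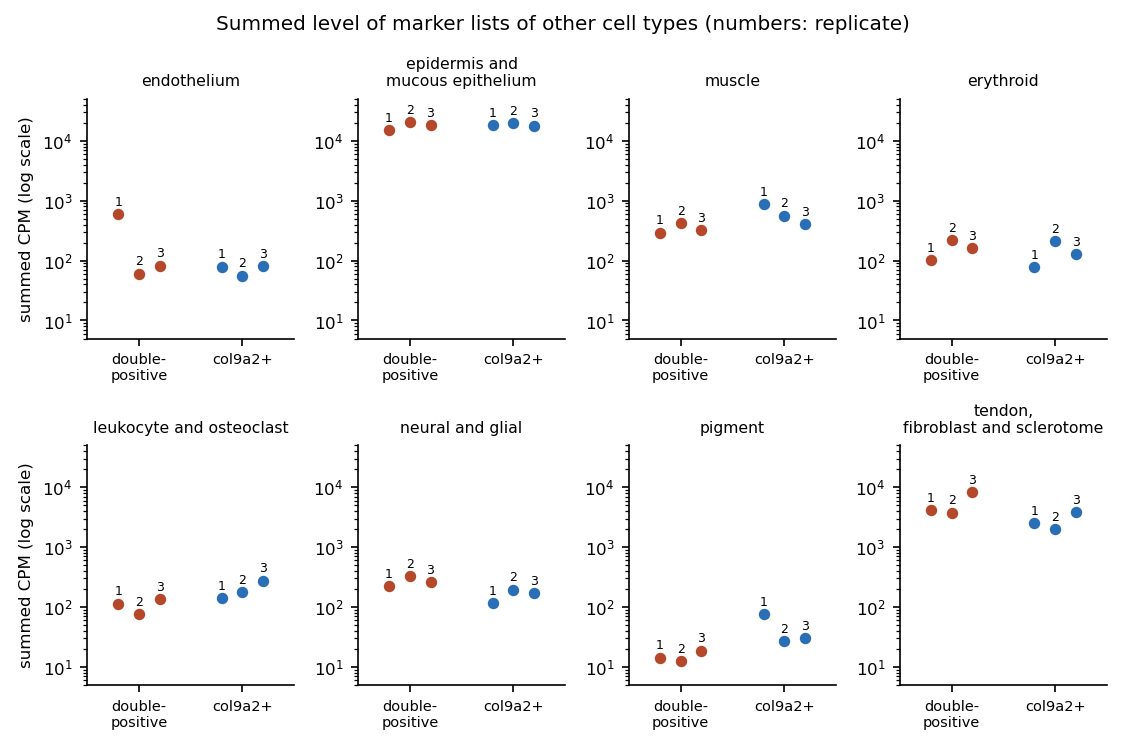
Summed CPM on a log axis of 8 marker lists of other cell types in each double-positive (left) and col9a2+ (right) library, with replicate numbers beside the points. The endothelial sum is 597 CPM in double-positive library 1 and at most 82.2 CPM in the other 5 libraries.

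The entpd5a+ libraries, given as a description, show where the third population stood for the called genes. Of the 319 rises, the entpd5a+ mean lay between the double-positive and col9a2+ means for 215, above the double-positive mean for 42 and below the col9a2+ mean for 62. Of the 355 falls, it lay between for 295, below the double-positive mean for 29 and above the col9a2+ mean for 31. Because these genes were chosen for a difference between double-positive and col9a2+ cells, the choice itself favours a mean in between. The same count over all tested genes was not made, so no intermediate state can be read from these counts. The segment gene mespbb had 23.5, 58.6 and 361 CPM in entpd5a+ libraries, col8a1a 443, 690 and 1077 CPM, and ENTPD5 5678, 3955 and 3142 CPM. In each of these 3 genes all entpd5a+ libraries were below all double-positive libraries.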

How the data were processed

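Counts of reads per Ensembl gene were deposited as whole numbers, 1 file per library. HISAT2, HTSeq and the build GRCz10 are named in the submitters' processing notes; versions and strand setting are not given in the sources used here. Without strand, overlapping antisense genes cannot be told apart. Per the labels' protocols, cells were sorted by fluorescence and ultra-low-input libraries amplified.

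Names came from a table that named 26433 of 32266 IDs (81.92%). IDs are printed for names held by more than 1 of them. List entry entpd5a matched ENTPD5 without the paralog letter, a rule used for 244 of 1009 list entries. No chromosome positions or sequences were used.

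All 9 libraries were fitted in edgeR 4.0.16 (R 4.3.3) with filterByExpr (19039 genes), TMM factors, 1 coefficient per population and robust quasi-likelihood. Double-positive minus col9a2+ was tested by a two-sided F test, and a call needed p under 0.05 after Benjamini-Hochberg adjustment across every tested gene. CPM are counts per 1000000 counts of effective library size (total times TMM factor), not per length. The SE is the absolute log2 difference divided by the square root of F. In simulated data on 18348 genes the test recovered 0% of 2-fold, 24% of 4-fold, 66% of 8-fold and 82% of 16-fold changes, with 7 false calls. The changes were placed only in genes averaging at least 5 CPM, and the simulated counts held no shift shared by replicate number. Recovery in rarer genes was not simulated. Intervals and floors (3 counts) cover counting error only.

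Members and lists were chosen with earlier results of these data known, and lists were not tested as sets. Some lists share members (col8a1a, loxl5b, ihhb and cdh1, for example), so their counts are not separate. Named genes are the sort genes, the 12 largest rises and falls with a mean of at least 20 CPM and no overlap, the 10 of highest CPM per direction, and per list up to 4 called per direction and up to 3 not called, from which the text draws. Further called signalling members, LAMA5, HSPG2 and TGFBI were named after their values were seen. Deviations of same-numbered double-positive and col9a2+ libraries from their population means correlated across genes (r = 0.181, 0.219 and 0.332), so the number was used as a block. Other pairs gave -0.197 to -0.000924, but centring on the population mean ties these values to the same-number values. The labels do not say what the numbers stand for, and whether shared depth or handling gave the correlations was not tested. Alternatives were other scalings and filters, 6 libraries, the block, a term for depth, a minimum fold of 1.5, DESeq2 1.42.0 and each library left out. In the 6 libraries the block left a median of 2 residual degrees of freedom for the spread, against 6 in the main fit. Some genes that met the naming rule are not reported here.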

Additional observations from a re-analysis of the deposited data

How the results depend on the processing

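Against 674 calls (319 higher, 355 lower), the counts stayed within 1.5 times under RLE factors (665), upper-quartile factors (670), all genes with counts kept (695), only genes averaging 10 CPM or more (586) and the 6 libraries alone (747). The replicate block in the 6 libraries gave 2228 calls (1219 higher, 1009 lower), the block in all 9 libraries 1024 (529 higher), the depth term 1314 (642 higher, 672 lower) and DESeq2 2026 (762 higher, 1264 lower). A minimum fold of 1.5 left 205 genes higher. With 1 library left out there were 242 to 787 calls, 113 to 368 higher and 129 to 419 lower. ENTPD5 was called under all of these settings, at 5.31 to 6.20 with a library left out. COL9A2 was called at -2.95 with the 6 libraries, -2.98 with the block in them, -2.87 with the depth term, -2.99 by DESeq2 and -2.91 without entpd5a+ library 1. It was not called with the block in all 9 libraries (-2.87, edgeR adjusted p = 0.0808), and it ranged from -3.10 to -2.67 with a library left out. Of the genes named in the text, those whose call the block in the 6 libraries changed are given with its adjusted p where they are described, and it changed no other call. Uncalled differences that turned sign were those of FLI1 (-0.56 with that block, -1.92 to 1.64 with a library left out), kdrl (-1.14 with that block, -0.39 with the block in 9 libraries, -2.26 to 3.08), hsp70l (-3.22 to 4.89) and col1a1a (-0.75 to 0.30). The cause of these shifts was not tested. RLE and upper-quartile factors moved the median log2 difference of all genes to -0.0695 and -0.0766. Simulated 2-fold changes were not recovered at this depth and spread, so a gene without a call is not shown to be equal in the 2 populations.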

Other observations

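Gene groups described here were, apart from the Hox list, assembled after their values were seen, and they were not tested as groups. Enzymes of phenylalanine and tyrosine breakdown and of the pterin cofactor it needs were lower in double-positive cells. Of 13 tested genes 8 fell and none rose (0 at an unadjusted p under 0.05 in edgeR and 0 by DESeq2), with a median log2 difference of -4.28 against 0.01 over all genes, where 1.86% fell. TAT, which starts tyrosine breakdown, had 8.34, 12.6 and 41.6 CPM in double-positive libraries and 815, 843 and 738 CPM in col9a2+ libraries (-5.26 ± 0.69, adjusted p = 0.00544). GCH1, which starts the making of the pterin cofactor, had 7.99, 3.95 and 7.99 CPM in double-positive libraries and 165, 172 and 149 CPM in col9a2+ libraries (-4.61 ± 0.40, adjusted p = 0.0014). The later enzymes HPD and HGD fell by 5.15 ± 0.80 (adjusted p = 0.00967) and 4.75 ± 0.71 (adjusted p = 0.00826). Without double-positive library 3 TAT was at -6.25 and HPD at -6.06. Calls of TAT, GCH1, HPD and HGD held without each library.

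Of 46 claudin and tight junction genes 13 fell and 1 rose (30.4% called, against 3.54% of all genes). Among these falls cldnb, cldn7a and cldne are also counted in the epidermal and mucous list, so the groups are not separate findings. The call of cldne was lost with the block (edgeR adjusted p = 0.0552, against 0.0438 without it) and in 6 of 9 fits. With the block 17 of the 46 genes were called lower and 6 higher, and without double-positive library 1 none was called higher and 9 lower. The claudin gene cldn3c had 1.03, 2.55 and 2.65 CPM in double-positive libraries and 411, 362 and 123 CPM in col9a2+ libraries (-7.16 ± 0.84, adjusted p = 0.00371). Occludin gene oclnb had 3 counts in double-positive libraries and 3437 in col9a2+ libraries (ratio 992 in col9a2+ over double-positive, exact 95% interval 339 to 4810). Of 80 tested focal adhesion and actomyosin genes 16 rose and 1 fell, where 1.68% of all genes rose, with a median log2 difference of 0.561. With the block 29 were called higher and 3 lower, and without double-positive library 1 there were 9 and 1. Of 31 EGF, PDGF, endothelin and IGF-binding factors 8 rose and none fell (2 at an unadjusted p under 0.05 in edgeR and 1 by DESeq2), so 25.8% were called, against 3.54% of all genes. With the block 10 of these factors were called higher and 1 lower, and without double-positive library 1 there were 6 and 0. IGFBP3, which binds insulin-like growth factors, had 966, 1761 and 2072 CPM in double-positive libraries and 65.3, 111 and 50.4 CPM in col9a2+ libraries (4.40 ± 0.50, adjusted p = 0.00338). Of 48 axon guidance genes 8 rose and 3 fell (13 and 7 with the block), so 22.9% were called, against 3.54% of all genes. Among them were SLIT3 (4.50 ± 0.50, adjusted p = 0.00293) and SLIT1 (ENSDARG00000099446) (-5.75 ± 0.86, adjusted p = 0.00826), a pair of secreted repellents. Calls of cldn3c, oclnb, IGFBP3, SLIT3 and SLIT1 (ENSDARG00000099446) held without each library, oclnb was at -10.87 without double-positive library 2, and SLIT1 was at -5.10 without col9a2+ library 3.

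Of 46 tested Hox genes 4 fell and none rose (4 at an unadjusted p under 0.05 in edgeR and 1 by DESeq2), with a median log2 difference of -0.516. They were hoxa2b, hoxa9b, HOXA11 (ENSDARG00000007009) and hoxa13b, which fell by 1.98 to 5.74, and each call was lost in 3 or more of the 9 fits. Without double-positive library 1 hoxa2b was at -7.20 and HOXA11 at -3.87, and 2 Hox genes were called lower, while with the block 6 were called lower and 3 higher. For all genes the block called 5.75% lower and 6.95% higher. The Reissner fibre gene sspo had no count in double-positive libraries and 850 in col9a2+ libraries (edgeR adjusted p = 0.0227). Against 3 counts over the population this is 245-fold lower, and the exact 95% interval of the ratio starts at 199. The sspo call was lost in 4 of 9 fits (adjusted p up to 0.0901, without col9a2+ library 3). Its level was 3.53, 1.99 and 6.92 CPM in the col9a2+ libraries, and the fitted difference was -10.91, against -10.23 without library 3. The urotensin-related peptide gene urp2 had 0, 0.182 and 0.0147 CPM in double-positive libraries and 25.1, 16.6 and 32.1 CPM in col9a2+ libraries (-8.64 ± 1.88, adjusted p = 0.0361), and was at -11.17 without double-positive library 2 and uncalled in 6 of 9 fits (adjusted p up to 0.102, without col9a2+ library 1).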
